A study of Homo sapiens with 8 samples.

Results

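A group of 9 genes measured in the pancreatic cancer line Panc10.05 encodes the core of the death receptor and caspase-8 pathway: the receptors TNFRSF10A, TNFRSF10B and FAS, the ligand TNFSF10, the initiator caspase CASP8 and the inhibitors CFLAR, BIRC2, BIRC3 and XIAP. They were picked by symbol through the Ensembl identifiers of the count tables. The rule sets no threshold on a measured value, but the set was proposed when earlier results of these data were known. These 9 genes stood among 60675 listed genes, of which 16661 passed the filter on low counts and were tested. All 9 passed it, but TNFSF10 did so only through the resistant libraries, so its difference between the lines is given as a description.

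The transcriptome was sequenced from polyadenylated RNA in 8 libraries that form 4 groups of 2. Parental untreated cells received no drug, and parental indisulam cells received 2 µM indisulam for 18 h. The resistant cells descend from the same line and were obtained by raising the indisulam dose in steps. Resistant indisulam cells stayed on 2 µM of the drug throughout, whereas resistant untreated cells were sampled after a period off it. The drug comparison in resistant cells thus sets continued drug against withdrawal. In parental cells it sets 18 h of drug against none. Indisulam recruits the splicing factor RBM39 to the ubiquitin ligase receptor DCAF15, and RBM39 is then degraded. Only 1 resistant line was sequenced, and within a group the libraries are technical replicates by the study's account, so p-values measure only how far libraries spread. Growth and treatment notes in the sample labels name A549, a lung line, while the titles and the cell line entry name Panc10.05, and the titles were followed here.

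Death receptors are cell surface proteins of the tumour necrosis factor receptor family whose cytoplasmic death domain binds the adaptor FADD. FADD gathers procaspase-8 molecules into a complex in which they activate one another, after which caspase-8 cleaves the executioner caspases and BID, the link to mitochondria. CFLAR, also known as cFLIP, is a caspase-8 relative that occupies the same complex and restrains its activation. The ubiquitin ligases cIAP1 (BIRC2) and cIAP2 (BIRC3) ubiquitinate RIPK1 at the tumour necrosis factor receptor and sustain NF-kB signalling, and XIAP binds and inhibits executioner caspases and caspase-9. In many pancreatic cancer lines TRAIL, the protein product of TNFSF10, is known to meet a high threshold for killing, in which CFLAR and XIAP take part.

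Between 65266253 and 108002436 reads per library were assigned to genes, and 22728 to 25263 genes had a read. Epithelial identity was clear in each library, with 7 of 7 ductal markers (KRT7, KRT8, KRT18, KRT19, EPCAM, CDH1 and MUC1) read and a summed level of 6329 to 6517 CPM in parental and 10820 to 12250 CPM in resistant libraries. CPM, the unit of level used here, divides a gene's reads by the effective library size after TMM scaling. The lung markers NKX2-1 and SFTPB had no read in any library, SFTPC had at most 1, and the summed level of the 4 lung markers was at most 0.198 CPM. PTPRC and CD3E, markers of leukocytes, had no read either, while CD14 had 6 to 28 reads. Summed levels of the 3 leukocyte markers were 0.0775 to 0.164 CPM in parental and 0.202 to 0.371 CPM in resistant libraries. Summed fibroblast markers reached 3.93 to 4.02 CPM in resistant indisulam libraries against 1.35 to 1.88 CPM elsewhere, almost all of it COL1A1. Endothelial markers summed to 0.181 to 0.341 CPM. In such bulk libraries fewer cells with a transcript and less transcript per cell cannot be told apart. No A549 library was compared here, so these markers do not settle which line named in the labels was sequenced.

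The promoters of TNFSF10 and BIRC3 are shown because these 2 genes differed most between the lines off the drug. Each line holds the 250 bases upstream of the RefSeq start site on GRCh38.p14, written in the direction of transcription, at chr3:172523431-172523680 on the minus strand for TNFSF10 and chr11:102317234-102317483 on the plus strand for BIRC3. Capitals mark matches to an interferon-stimulated response element core in TNFSF10 and to the kappaB consensus in BIRC3.
TNFSF10: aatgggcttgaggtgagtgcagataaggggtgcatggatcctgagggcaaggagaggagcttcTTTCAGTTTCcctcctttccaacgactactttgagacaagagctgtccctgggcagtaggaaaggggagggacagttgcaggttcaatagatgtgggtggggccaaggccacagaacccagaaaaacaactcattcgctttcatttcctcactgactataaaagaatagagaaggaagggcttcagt
BIRC3: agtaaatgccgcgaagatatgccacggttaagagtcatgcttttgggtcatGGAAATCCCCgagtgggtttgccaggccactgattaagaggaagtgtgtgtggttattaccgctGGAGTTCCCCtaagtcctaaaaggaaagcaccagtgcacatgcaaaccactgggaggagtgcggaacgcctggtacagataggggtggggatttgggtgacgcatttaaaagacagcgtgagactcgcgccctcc
The match in TNFSF10 lay at -187 to -178 from the start site, and those in BIRC3 at -199 to -190 and -135 to -126.

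A set of 4 motifs was searched on both strands in the RefSeq windows of 300 bases around the start sites, which covered 7 of the 9 genes. The response element core (GAAA, 2 bases of any kind, then GAAA) was present in 3.57% of 35116 promoter windows and in 2 genes, TNFSF10 and CASP8. Matches to the kappaB consensus were found in 11.3% of windows and in 3 genes, FAS, CFLAR and BIRC3. An AP-1 site (TGANTCA) was present in 7.71% of windows and in FAS, CASP8 and CFLAR, and a gamma-activated sequence (TTCNNNGAA) in 7.66% of windows and in CASP8. Windows of BIRC2 and XIAP held none of these letters. FAS, CASP8, CFLAR, BIRC2 and XIAP have several windows each, which gives them more chances of a match. A match is a description of the letters and not evidence of binding.

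Levels of the 9 genes were first compared with each other per length, as CPM per kilobase of the canonical transcript. In parental untreated cells BIRC2 was highest at 34.5, followed by TNFRSF10B at 22.9, TNFRSF10A at 15.9, CASP8 at 12.6, XIAP at 11.9, CFLAR at 7.84, BIRC3 at 4.15, FAS at 2.13 and TNFSF10 at 0.0245. The order was the same in the parental indisulam and resistant untreated groups. It changed in resistant indisulam cells by 1 exchange, with CASP8 at 14.8 above TNFRSF10A at 14.4, and the ranges of their libraries did not overlap (14.67 to 14.93 against 14.29 to 14.52). Thus both TRAIL receptors were abundant in every group, and the ligand was the scarcest transcript of the set. CFLAR has a long canonical transcript of 14612 bases, so its level per kilobase is low although its reads are many.

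**Figure D1:**
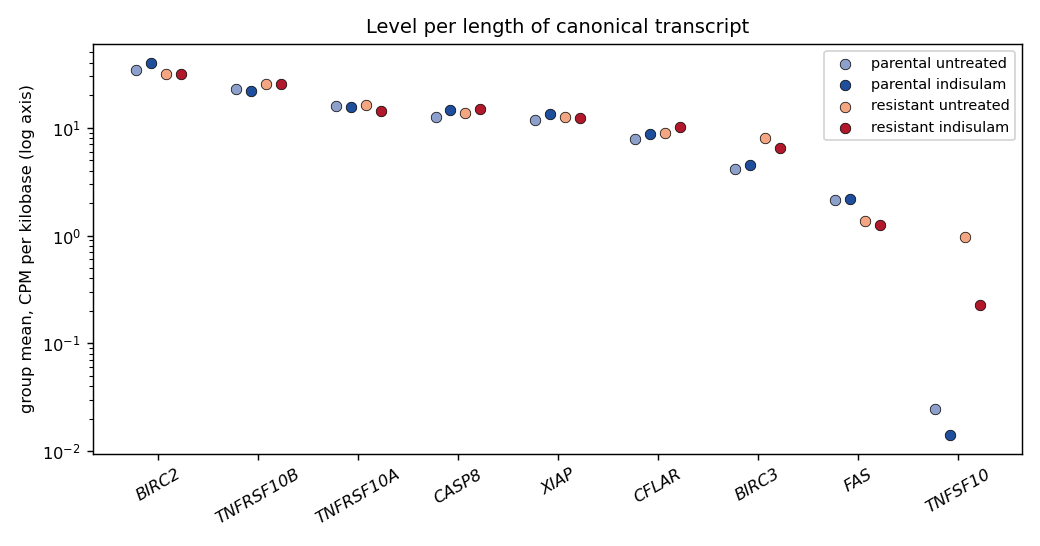
Mean level of each gene in the 4 groups, in CPM per kilobase of the canonical transcript on a log axis (1 point per group, mean of 2 libraries, genes ordered by parental untreated cells). BIRC2 is on top in every group, TNFSF10 is at the bottom, and TNFSF10 spans the widest range, from 0.014 to 0.97.

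The receptors for TRAIL came first. TNFRSF10A (death receptor 4, ENSG00000104689, chromosome 8, 23190452 to 23225102, minus strand) was measured at 42.0 and 43.8 CPM without indisulam and 41.9 and 42.6 with it in parental cells, and 43.98 and 43.56 without and 38.4 and 39.1 with it in resistant cells. Resistant cells on the drug thus lay below the other 3 groups, which overlapped with their neighbours in rank. In resistant cells TNFRSF10A was lower on the drug than off it, with a log2 change of -0.175 (SE 0.036, 95% interval -0.25 to -0.10, adjusted p 0.00025), and no change was called in parental cells (log2 change -0.022, 95% interval -0.094 to 0.049, adjusted p 0.6, at 0.008 without replicate 2 of parental untreated). The difference between these responses was -0.15 (SE 0.05, adjusted p 0.013). Off the drug the lines were not called different for TNFRSF10A (log2 difference 0.029, 95% interval -0.043 to 0.10, adjusted p 0.49, at -0.001 without replicate 1 of parental untreated), and on the drug resistant cells were lower by a log2 difference of -0.12 (SE 0.036, adjusted p 0.0035). With libraries scaled by their totals alone, the on-drug difference was -0.037 and the difference of responses -0.038, and neither was called. A divergent transcript on the other strand, TNFRSF10A-DT, shares 266 exonic bases with the gene and took 18.1% of the reads that fell on either gene.

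TNFRSF10B (death receptor 5, ENSG00000120889, chromosome 8, 23020133 to 23069031, minus strand) is the other receptor that carries a TRAIL signal. Its levels were 90.8 and 92.5 CPM for the untreated and 89.4 and 86.0 for the treated parental libraries, and 99.3 and 105.1 for the untreated and 101.5 and 102.6 for the treated resistant ones. All 4 resistant libraries were above all 4 parental ones. The log2 difference of resistant from parental cells was 0.16 off the drug (SE 0.032, adjusted p 0.00019) and 0.22 on it (SE 0.032, adjusted p 2.5e-06). No change of TNFRSF10B with indisulam was called in parental cells (log2 change -0.063, 95% interval -0.13 to 0.003, adjusted p 0.097) or in resistant cells (-0.002, 95% interval -0.069 to 0.065, adjusted p 0.97). The parental value became a call when libraries were scaled by their totals (-0.13), and the resistant value changed sign to 0.047. RHOBTB2, a neighbour on the other strand, shares 377 exonic bases with TNFRSF10B and took 11.8% of the reads that fell on either gene.

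FAS (ENSG00000026103, chromosome 10, 88953813 to 89029605, plus strand), the receptor of FASLG and a p53 target, was the one of the 3 receptors in the set that differed most between the lines. It was read at 7.70 and 8.02 CPM in the parental line without indisulam and 8.16 and 8.11 with it, and 5.06 and 4.99 in the resistant line without and 4.23 and 5.05 with it. Every resistant library was below every parental one. The log2 difference was -0.64 off the drug (SE 0.076, 95% interval -0.80 to -0.49, adjusted p 9.2e-08) and -0.79 on it (SE 0.077, 95% interval -0.95 to -0.63, adjusted p 2.8e-09), a level of 0.64 and 0.576 times that of parental cells. No effect of the drug on FAS was called in parental cells (log2 change 0.05, SE 0.069, adjusted p 0.56), where the sign turned under scaling by library totals (-0.017). The value in resistant cells (log2 change -0.10, SE 0.085, adjusted p 0.34) rested on single libraries: it was 0.007 without replicate 1 and -0.25, then called, without replicate 2 of the resistant indisulam group, and the difference of responses moved from -0.15 to -0.30 without replicate 2 and was then called as well. FAS shares 166 exonic bases on its own strand with STAMBPL1, which took 86.8% of the reads that fell on either gene, and 387 bases with ACTA2 on the other strand, so its level may depend on how shared reads were assigned.

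**Figure D2:**
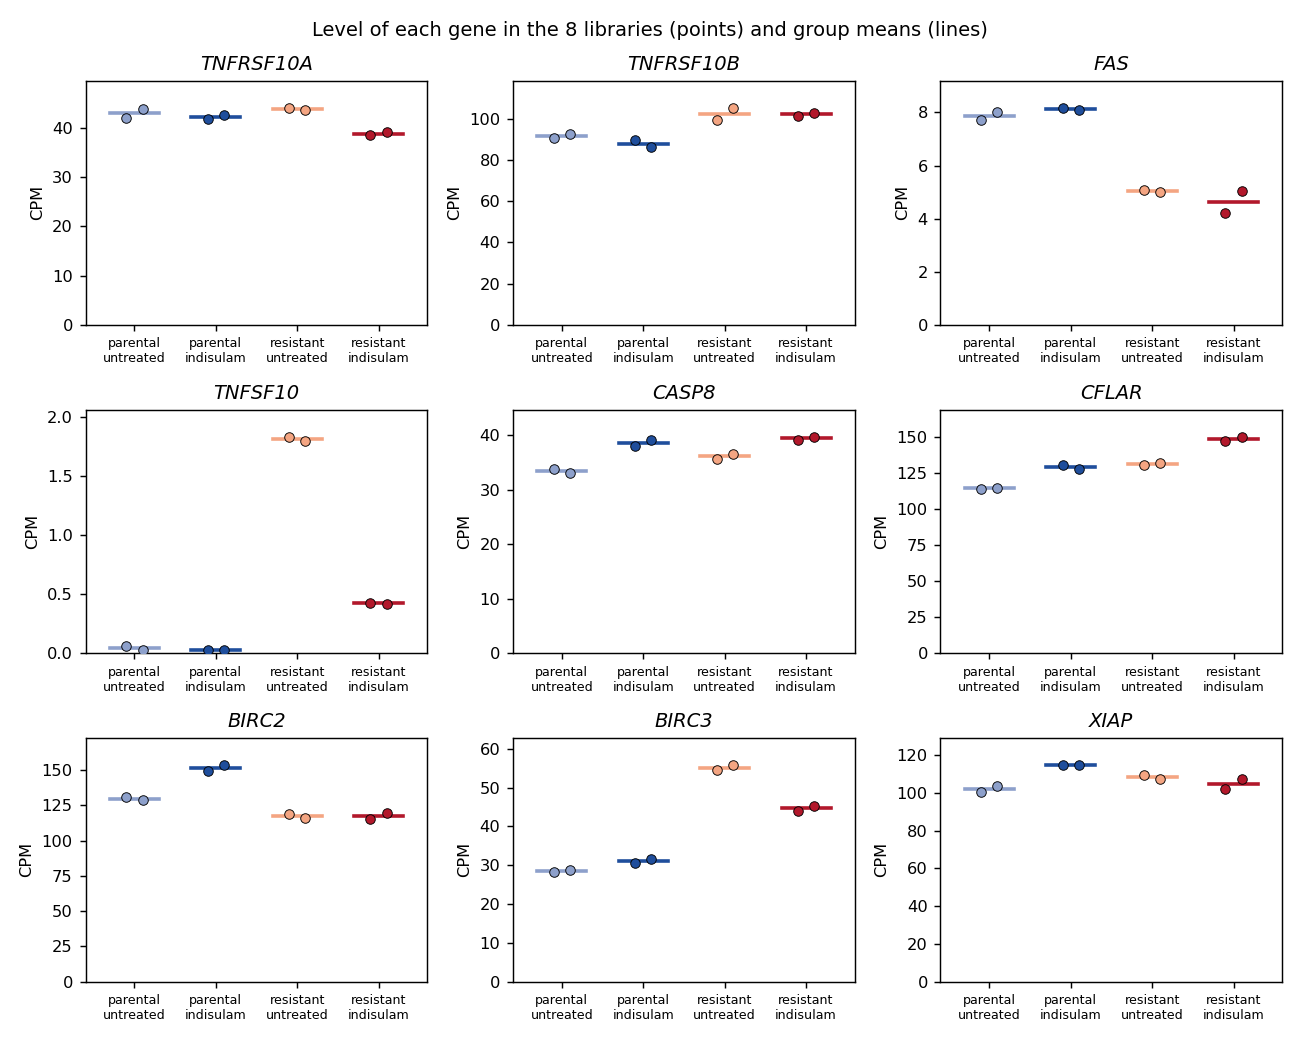
CPM of the 9 genes in the 8 libraries (points) with group means (lines), on linear axes from 0. FAS (4.23 to 5.06 against 7.70 to 8.16 CPM) and BIRC2 (115.1 to 119.9 against 128.9 to 153.6 CPM) separate the lines downwards. TNFRSF10B, BIRC3 and TNFSF10 separate them upwards, of which TNFSF10 passed the filter only through resistant libraries. CFLAR rises from 114 to 150 CPM across the groups.

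The ligand TNFSF10 (TRAIL, ENSG00000121858, chromosome 3, 172505508 to 172523475, minus strand) was almost silent in parental cells. It had 7 and 3 reads without indisulam and 2 and 2 with it in parental cells, and 136 and 117 without and 29 and 40 with it in resistant cells. In CPM these were 0.064 and 0.0281, 0.0267 and 0.0258, 1.84 and 1.80, and 0.43 and 0.416. The 4 groups did not overlap, but the closest libraries of the 2 parental groups held 3 and 2 reads and are hardly separated. Resistant cells off the drug had the most TNFSF10 reads although their libraries were among the smallest.

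Summed over libraries and scaled for depth, TNFSF10 was 39.4 times higher in resistant than in parental cells off the drug (exact 95% counting interval 21.1 to 83.1) and 16.1 times higher on it (6.001 to 60.65). These intervals cover counting error only. On the drug resistant cells had 0.232 of their TNFSF10 level off it (0.175 to 0.303), and the fitted log2 change was -2.10 (SE 0.18, adjusted p 8.5e-10). In parental cells, with 4 against 10 reads, the ratio was 0.568 (0.13 to 1.97) and no change was called. The difference of the responses could not be resolved from so few parental reads (log2 difference -1.32, 95% interval -3.15 to 0.503, adjusted p 0.25). The response element match at -187 to -178 shown above belongs to this gene, and whether it takes part was not tested.

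CASP8 (ENSG00000064012, chromosome 2, 201233443 to 201361836, plus strand), the caspase that starts the cascade, was higher on the drug than off it in both lines. It measured 33.8 and 33.0 CPM for the untreated and 38.0 and 39.1 for the treated parental libraries, and 35.6 and 36.6 for the untreated and 39.0 and 39.7 for the treated resistant ones. Untreated libraries of both lines were below all 4 treated ones, and the treated groups overlapped. The log2 change was 0.21 in parental cells (SE 0.035, adjusted p 2.4e-05) and 0.125 in resistant cells (SE 0.036, adjusted p 0.006), and the responses were not called different (-0.083, 95% interval -0.19 to 0.023, adjusted p 0.18, at 0.033 under scaling by library totals). CASP8 was slightly higher in the resistant line off the drug (log2 difference 0.11, SE 0.036, adjusted p 0.0094) and not called on it (0.03, 95% interval -0.044 to 0.104, adjusted p 0.46). The last value became 0.118 and a call under scaling by library totals. The change in resistant cells was not called without replicate 1 of resistant untreated (0.105) or replicate 2 of resistant indisulam (0.111), and the off-drug difference was not called without replicate 2 of parental untreated (0.096).

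CFLAR (ENSG00000003402, chromosome 2, 201116154 to 201176687, plus strand) lies in a cluster with CASP8 and CASP10 and encodes the inhibitor that competes with it at FADD. Libraries held 114.3 and 114.9 CPM in the parental line without indisulam and 130.5 and 127.8 with it, and 130.6 and 131.9 in the resistant line without and 147.4 and 150.4 with it. The lowest and the highest group stood clear of all others, and parental indisulam and resistant untreated cells were adjacent. CFLAR was higher on indisulam by a log2 change of 0.17 in parental cells (SE 0.028, adjusted p 1.4e-05) and 0.18 in resistant cells (SE 0.028, adjusted p 9.3e-06). The resistant line was higher by 0.20 off the drug (SE 0.028, adjusted p 2.1e-06) and 0.21 on it (SE 0.028, adjusted p 7.2e-07). The difference of the responses had an interval of -0.073 to 0.093 around 0.01 (adjusted p 0.85). Its sign turned with DESeq2 size factors (-0.001), and it was called at 0.125 under scaling by library totals. CFLAR thus was the 1 gene of the set that was called higher in both drug comparisons and in both line comparisons.

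BIRC2 and BIRC3 are neighbours on chromosome 11, BIRC3 at 102317484 to 102339403 (ENSG00000023445) and BIRC2 at 102347211 to 102378670 (ENSG00000110330), both on the plus strand. BIRC2 encodes cIAP1 and BIRC3 encodes cIAP2, and BIRC3 is known as an NF-kB target. The lines differed in opposite directions for the 2 genes.

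BIRC2 was at 130.8 and 128.9 CPM without indisulam and 149.4 and 153.6 with it in parental cells, and 118.8 and 116.3 without and 115.1 and 119.9 with it in resistant cells. All resistant libraries were below all parental ones, and the drug separated the parental groups and left the resistant ones overlapping. The log2 change with indisulam was 0.22 in parental cells (SE 0.029, adjusted p 8.4e-07) and 0.00 in resistant cells (95% interval -0.063 to 0.063), where scaling by library totals gave 0.049, also not called. The difference of the responses was -0.22 (SE 0.042, adjusted p 0.00013). Resistant cells were lower for BIRC2 by a log2 difference of -0.14 off the drug (SE 0.03, adjusted p 0.00023) and -0.37 on it (SE 0.03, adjusted p 1.3e-10).

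BIRC3 was at 28.3 and 28.8 CPM for the untreated and 30.6 and 31.7 for the treated parental libraries, and 54.5 and 55.8 for the untreated and 44.04 and 45.36 for the treated resistant ones. The 4 groups did not overlap, and resistant cells off the drug were highest, as for TNFSF10. The level was 1.93 times that of parental cells off the drug (log2 difference 0.95, SE 0.035, adjusted p 5.7e-17) and 1.44 times on it (0.52, SE 0.037, adjusted p 7.6e-12). In resistant cells BIRC3 was lower on the drug, with a log2 change of -0.30 (SE 0.035, adjusted p 1.4e-07), whereas in parental cells it was slightly higher (0.13, SE 0.037, adjusted p 0.0054). The difference of the responses was -0.43 (SE 0.051, 95% interval -0.53 to -0.32, adjusted p 3.5e-07). Among the 16661 genes tested, 87.2% had a smaller absolute difference between the lines off the drug than BIRC3. The parental rise was not called under scaling by library totals (0.06), or without replicate 1 of parental untreated (0.113) or replicate 2 of parental indisulam (0.103).

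XIAP (ENSG00000101966, chromosome X, 123859712 to 123913972, plus strand), the direct caspase inhibitor, varied least of the inhibitors between the lines. It was read at 100.3 and 103.8 CPM in the parental line without indisulam and 114.5 and 114.7 with it, and 109.6 and 107.2 in the resistant line without and 101.8 and 107.3 with it. Parental cells on the drug were above the other groups, whose neighbours in rank overlapped. XIAP rose with indisulam in parental cells by a log2 change of 0.17 (SE 0.031, adjusted p 7.4e-05) and was not called in resistant cells (-0.051, 95% interval -0.117 to 0.015, adjusted p 0.19), a difference of responses of -0.22 (SE 0.044, adjusted p 0.00028). The resistant line was higher for XIAP off the drug (log2 difference 0.087, SE 0.031, adjusted p 0.02) and lower on it (-0.13, SE 0.032, adjusted p 0.00077). Scaling by library totals left none of these called except the parental rise, with 0.059 off the drug, -0.043 on it and -0.103 for the difference of the responses. The off-drug call was also lost without replicate 1 of parental untreated (0.062) or replicate 1 of resistant untreated (0.078).

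**Figure D3:**
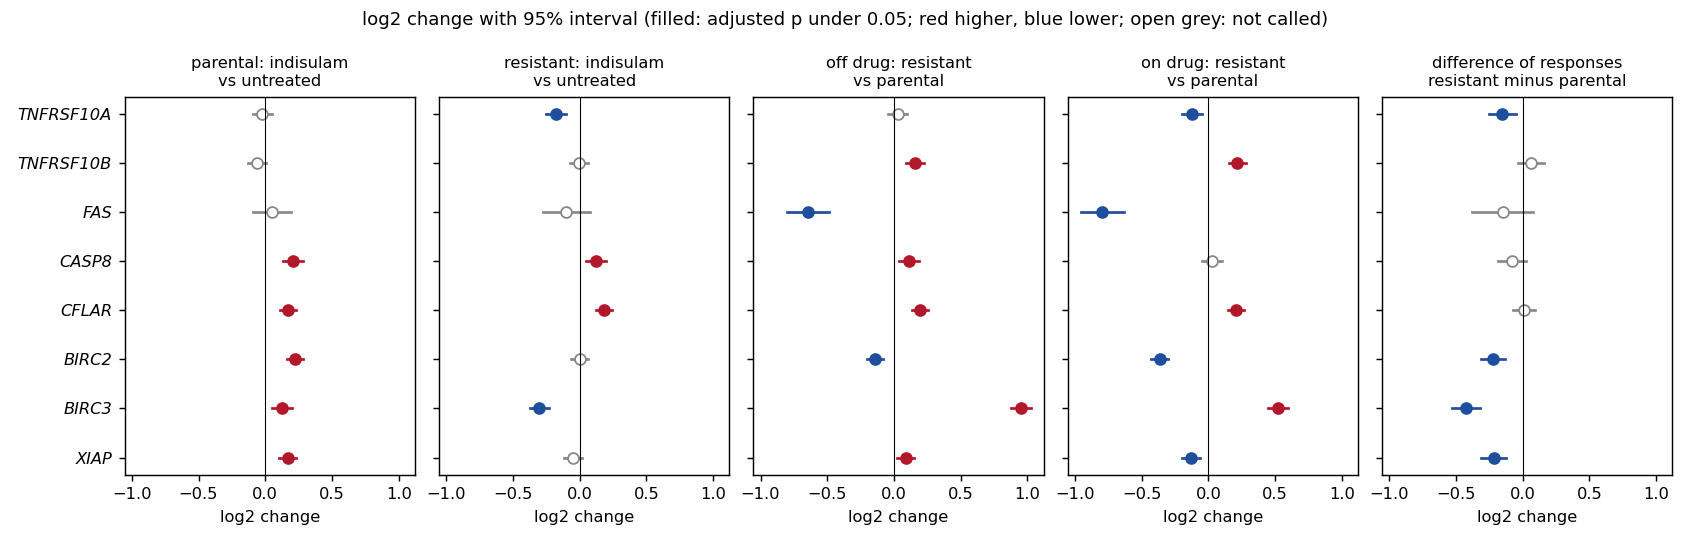
log2 change with its 95% interval for 8 genes (TNFSF10, with few parental reads, is left out) in the 5 comparisons, on a common linear axis. Points are filled red or blue where called higher or lower and open grey where not called. The largest change with the drug is that of BIRC3 in resistant cells (-0.30), and FAS (-0.64 and -0.79) and BIRC3 (0.95 and 0.52) stand out between the lines.

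Counted together, 5 of the 9 genes were called in parental cells on the drug, all 5 higher (CASP8, CFLAR, BIRC2, BIRC3 and XIAP) and 0 lower, in a comparison in which 58.2% of all tested genes were called, 31.6% higher and 26.6% lower. The median log2 change of the 9 genes was 0.13, beside 0.014 over all genes. None of the 3 receptors was called. With edgeR the count lower was also 0 at an unadjusted p under 0.05, and it was 0 with DESeq2. With libraries scaled by their totals TNFRSF10A (-0.089) and TNFRSF10B (-0.13) were called lower.

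In resistant cells on the drug 5 of 9 genes were also called, where 50.7% of all genes were, with 2 higher (CASP8 and CFLAR; 24.9% of all genes) and 3 lower (TNFRSF10A, TNFSF10 and BIRC3; 25.8% of all genes). The median log2 change was -0.051, beside 0.009 over all genes. Between the lines off the drug 8 of 9 were called, 6 higher and 2 lower, beside 60.1% of all genes, 30.3% higher and 29.9% lower, and the median log2 difference was 0.11, beside -0.015. Without TNFSF10, which had to differ to be tested, 7 of 8 were called, 5 higher and 2 lower. On the drug 8 of 9 were called, 4 higher and 4 lower, beside 69.5% of all genes, 34.6% higher and 34.9% lower, with a median of 0.03, beside 0.003. Without TNFSF10 these were 7 of 8, with 3 higher.

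For the difference of the responses 4 of 9 genes were called lower (TNFRSF10A, BIRC2, BIRC3 and XIAP) and 0 higher, beside 50.1% of all genes, 22.7% higher and 27.5% lower. With edgeR the count higher was 0 at an unadjusted p under 0.05 too, and it was 0 with DESeq2, but TNFRSF10B (0.177) and CFLAR (0.125) were called higher with libraries scaled by their totals, which moved the median of all genes in this comparison by 0.115. The 5 of 9 called in each drug comparison was near the share of all genes and is no result about the set. The comparisons are not independent, since each group enters several of them. Under scaling by library totals the share of higher genes among all calls moved from 54.3% to 42% in parental cells on the drug, from 49.1% to 59.7% in resistant cells on it, from 49.8% to 59.7% between the lines on the drug and from 45.2% to 65.8% for the difference of the responses.

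Most of the changes were small. The median absolute log2 change of the 9 genes was 0.17 in parental cells on the drug, 0.125 in resistant cells on it, 0.16 between the lines off the drug and 0.22 on it, beside 0.23, 0.20, 0.26 and 0.35 over all genes. Tested against a minimum of 0.5 log2 units, the calls were 0 in parental cells on the drug, 1 in resistant cells (TNFSF10), 2 between the lines off the drug (TNFSF10 and BIRC3), 2 on it (TNFSF10 and FAS) and 0 for the difference of the responses. Without TNFSF10, whose line differences are only described, BIRC3 was left off the drug and FAS on it. Over all 16661 genes the same test called 1042, 879, 2582, 3509 and 908, in the order of these comparisons. Beside these the few calls among the 9 genes are a description.

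The pathway was then widened to 35 further genes of extrinsic apoptosis, listed by role with earlier results of these data known. Of these, 30 were tested. FASLG (0 to 2 reads per library), TNFRSF10C (1 to 4), TNFRSF11B (0 to 8), TNFRSF6B (0) and RIPK3 (0) were not, and TNFRSF6B shares 1140 exonic bases with the readthrough gene RTEL1-TNFRSF6B, which had a mean of 226.1 reads. Of the tested genes, TNF, TNFSF12 and XAF1 passed the filter only through resistant libraries, TNF through those on the drug, so that comparisons with these libraries describe them and do not test them. The counts that follow are over the other 27 genes. In parental cells on the drug 7 were higher and 5 lower, none of them by 0.5 log2 units or more, where 58.2% of all genes were called. In resistant cells on the drug 11 were higher and 8 lower, beside 50.7% of all genes called. Between the lines 11 were higher and 6 lower off the drug and 11 and 8 on it, beside 60.1% and 69.5%. For the difference of the responses 8 were higher and 7 lower, beside 50.1%. The share called was thus below that of all genes in parental cells on the drug and above it in resistant cells on the drug. Between the lines and for the difference of the responses it was near that of all genes. A filter at a mean CPM of at least 1 raised the share of all genes called on the drug. It was then 8106 of 12066 genes in parental and 7459 of 12066 in resistant cells. The counts of the 27 genes are thus no result about the list. The median log2 values in the 5 comparisons were 0.007, 0.033, 0.127, 0.038 and 0.005, beside 0.014, 0.009, -0.015, 0.003 and 0.01 over all genes.

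Among the 3 ligands tested, TNF and LTA had few reads. TNF, the prototype of the family, had 20 and 12 reads without indisulam and 9 and 8 with it in parental cells, and 2 and 6 without and 22 and 29 with it in resistant cells. Its fitted log2 values were 2.41 with the drug in resistant cells, -1.34 between the lines off the drug and 1.47 on it. LTA, with 7 to 33 reads, was called higher with the drug in resistant cells (1.15) and lower in resistant than in parental cells off the drug (-1.11), and was not called on it (0.73, adjusted p 0.052). TNFSF12 (TWEAK) had 1 and 4 reads in parental untreated and 4 and 3 in parental indisulam libraries, against 97 and 78 in untreated and 114 and 162 in treated resistant libraries. It was 54.5 times higher in resistant cells off the drug (22.9 to 169.8) and 36.7 times higher on it (17.6 to 92.2). Unlike TNFSF10 it was not lower on the drug in resistant cells, where its log2 change was 0.42 (SE 0.15, adjusted p 0.021). TNFSF12 shares 553 exonic bases with the readthrough gene TNFSF12-TNFSF13, which had no reads here.

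**Figure D4:**
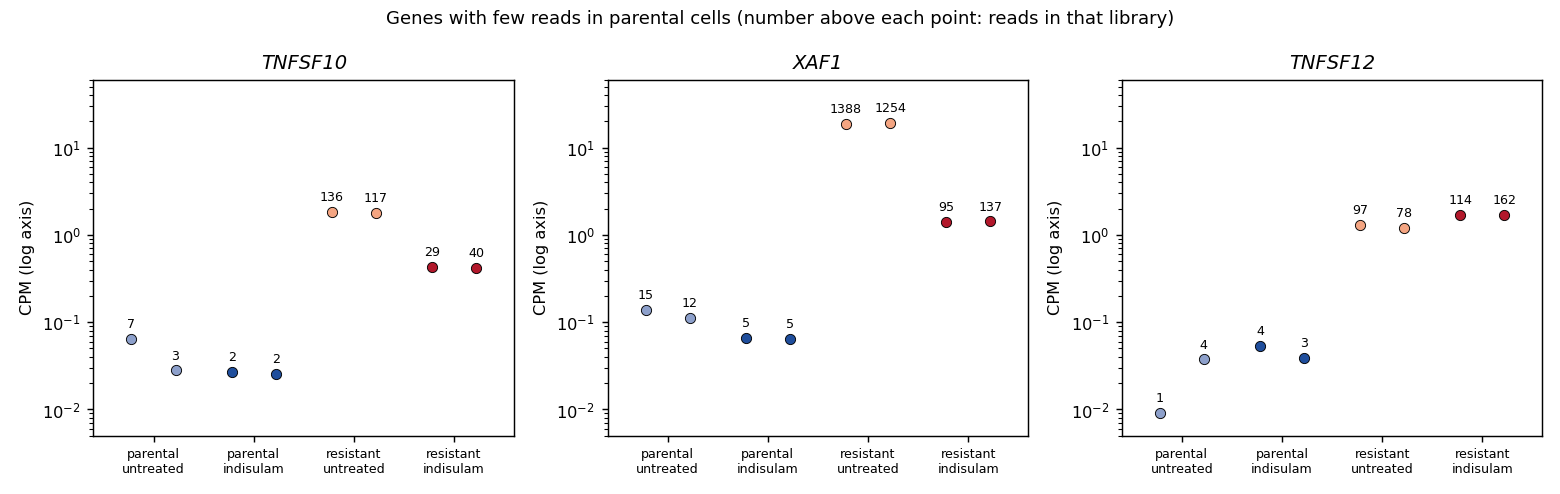
CPM of TNFSF10, XAF1 and TNFSF12 in the 8 libraries on a log axis, with the number of reads above each point. All 3 genes have at most 15 reads in any parental library and 29 or more in every resistant one, and TNFSF10 and XAF1, but not TNFSF12, are lower in resistant cells on the drug than off it.

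Of 4 other receptors tested, 3 were higher and 1 lower in parental cells on the drug, 3 were higher in resistant cells on it, 1 was higher and 2 lower between the lines off the drug and 1 and 1 on it. In the same order, 31.6% of all genes were higher and 26.6% lower, 24.9% and 25.8%, 30.3% and 29.9%, and 34.6% and 34.9%. With 4 genes these counts are a description. TNFRSF10D, a decoy receptor that binds TRAIL without a complete death domain, was at 83.9 and 86.0 CPM for the untreated and 98.9 and 103.4 for the treated parental libraries, and 49.6 and 47.3 for the untreated and 82.7 and 83.8 for the treated resistant ones. Resistant cells off the drug were lower than parental cells by a log2 difference of -0.81 (SE 0.034, adjusted p 5.7e-16), and on the drug by -0.28. On the drug it was higher by 0.78 in resistant cells (SE 0.035, adjusted p 7.4e-15) and by 0.25 in parental cells, and these responses differed by 0.53 (SE 0.047, adjusted p 5.8e-09). TNFRSF10D thus was lowest in the group in which TNFSF10 was highest. TNFRSF25 (death receptor 3) was lower on the drug in parental cells (log2 change -0.41) and higher on it in resistant cells (0.49), and these responses differed by 0.90 (SE 0.18, adjusted p 0.0029). In resistant cells it was lower than in parental cells off the drug (-0.41) and higher on it (0.50).

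Adaptors and ubiquitin factors, 10 genes, were called higher and lower in numbers of 1 and 2 in parental cells on the drug, 3 and 4 in resistant cells, 4 and 2 between the lines off the drug and 4 and 4 on it. Shares of all genes called higher and lower were 31.6% and 26.6%, 24.9% and 25.8%, 30.3% and 29.9%, and 34.6% and 34.9% in this order. With 10 genes these counts are no result about the adaptors. TNFAIP3 (A20, a deubiquitinase that limits NF-kB signalling and is itself an NF-kB target) was at 18.9 and 19.3 CPM in the parental line without indisulam and 19.5 and 18.3 with it, and 30.04 and 30.61 in the resistant line without and 50.2 and 49.2 with it. It was higher in resistant cells by a log2 difference of 0.67 off the drug (SE 0.041, adjusted p 6.8e-13) and 1.40 on it (SE 0.04, adjusted p 3.7e-19), and its responses differed by 0.73 (SE 0.057, adjusted p 7.9e-10). Thus TNFAIP3 and BIRC3, both known NF-kB targets, were higher in the resistant line. Within that line TNFAIP3 was higher and BIRC3 lower on the drug than off it. CYLD, another deubiquitinase, was lower in resistant than in parental cells off the drug (log2 difference -0.55, SE 0.035, adjusted p 1.5e-12) and on it (-0.38). It was higher on the drug than off it in resistant cells (0.23), and its change in parental cells was not called (0.062).

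Of 5 other caspases, 4 were higher in resistant cells off the drug and 3 on it, beside 30.3% and 34.6% of all genes. With the drug 1 was higher and 0 lower in parental cells, and 2 were higher and 1 lower in resistant cells. Of all genes, 31.6% were higher and 26.6% lower in parental cells, and 24.9% and 25.8% in resistant cells. With 5 genes these counts are no result about the caspases. The gene most changed between the lines was CASP10, an initiator caspase of the same cluster, with 5.78 and 5.05 CPM without indisulam and 5.60 and 4.75 with it in parental cells, and 8.68 and 8.69 without and 11.2 and 11.3 with it in resistant cells. Its log2 difference between the lines was 0.68 off the drug (SE 0.075, adjusted p 4.6e-08) and 1.119 on it (SE 0.076, adjusted p 7.2e-12). CASP9, the mitochondrial initiator, was higher in resistant cells on the drug by 0.50 (SE 0.063, adjusted p 2.1e-07) and off it by 0.44, and its changes with the drug were not called (0.093 in parental and 0.148 in resistant cells).

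The 6 genes of the IAP group, which holds inhibitors and their antagonists, included the gene with the largest difference between the lines off the drug in the list. XAF1, which encodes an antagonist of XIAP and is known to be induced by interferon, had 15 and 12 reads for the untreated and 5 and 5 for the treated parental libraries, and 1388 and 1254 for the untreated and 95 and 137 for the treated resistant ones. Off the drug it was 152.3 times higher in resistant than in parental cells (104.4 to 231.5), and on the drug 21.6 times (11.5 to 45.7). In resistant cells on the drug it was at 0.0746 of its level off it (0.065 to 0.0854). Its log2 change was -3.74 there (SE 0.084, adjusted p 1.4e-20), and the comparisons that use its parental libraries are given as a description. XAF1 and TNFSF10 had the same order of the 4 groups. Both passed the filter only through resistant libraries, and the change in parental cells was called for neither. The shared order is thus a description.

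DIABLO (Smac), the mitochondrial protein that binds IAP proteins, was higher on the drug than off it in resistant cells by a log2 change of 0.61. Levels there were 1.94 and 2.04 CPM on it against 1.24 and 1.39 off it. DIABLO was also higher in resistant than in parental cells on the drug (0.55). It shares 2192 exonic bases on its strand with another protein-coding gene model, and how shared reads were assigned is not known. BIRC5 (survivin) was lower in resistant than in parental cells on the drug (log2 difference -0.51, SE 0.03, adjusted p 3.4e-13) and off it (-0.50). It was higher on the drug than off it in parental (0.38) and in resistant cells (0.37). BID, the caspase-8 substrate that carries the signal to mitochondria, was at 27.5 and 28.5 CPM in the parental line without indisulam and 23.8 and 23.3 with it, and 38.7 and 40.6 in the resistant line without and 27.3 and 26.0 with it. It was higher in resistant than in parental cells off the drug (log2 difference 0.50, SE 0.039, adjusted p 7.3e-11). In resistant cells BID was lower on the drug than off it (-0.58, SE 0.041, adjusted p 3.6e-11).

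**Figure D5:**
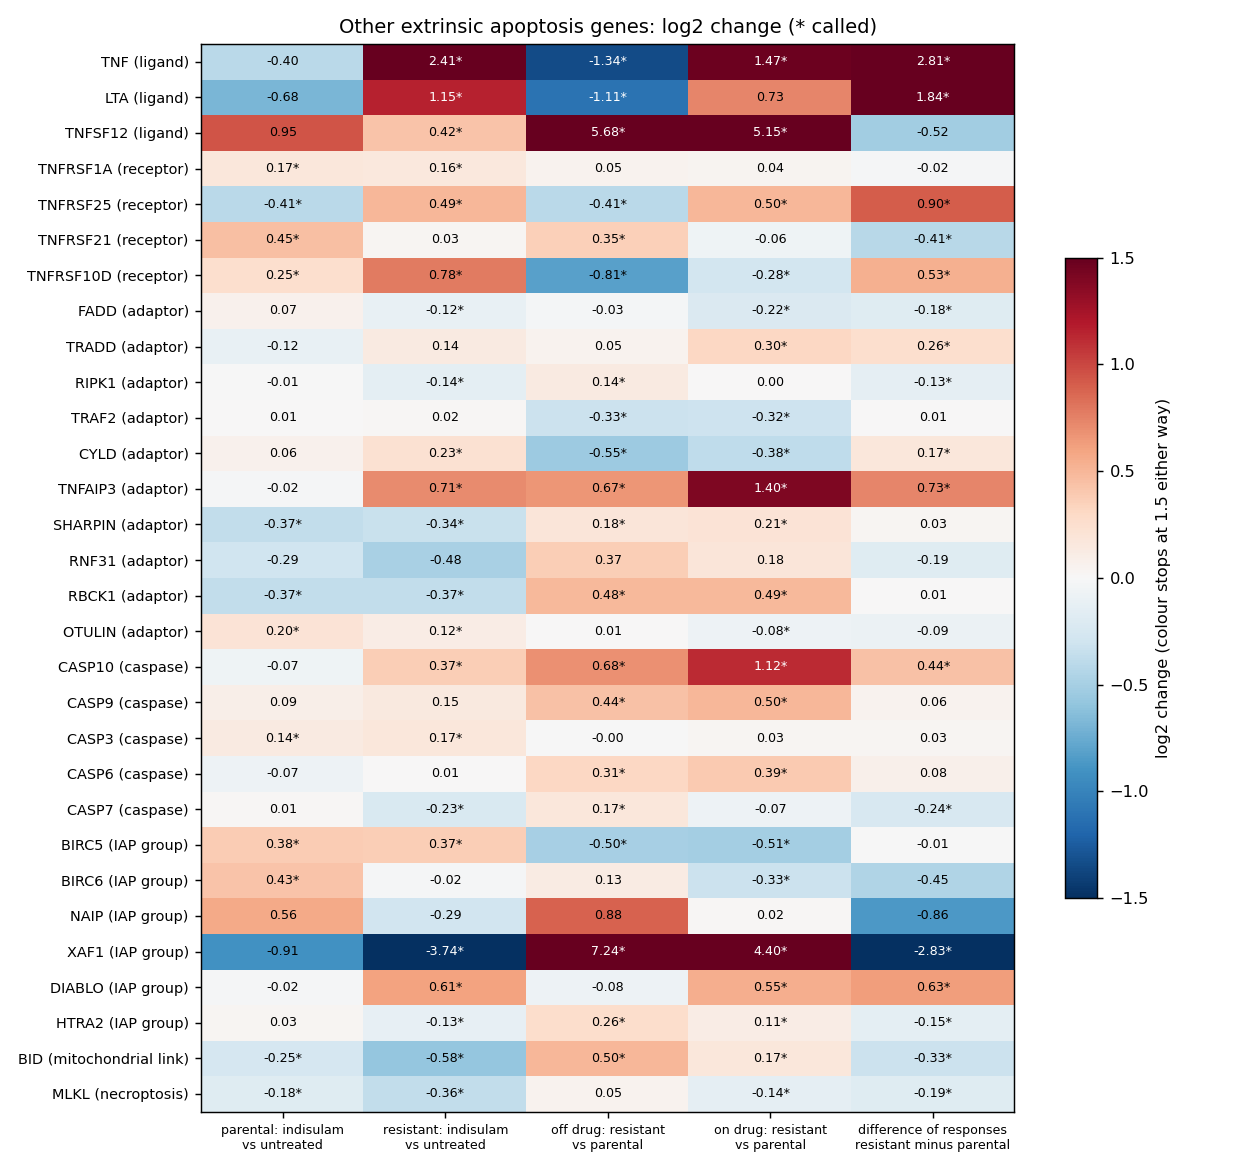
log2 change of the 30 further genes tested in the 5 comparisons, printed in each cell and coloured from blue (lower) to red (higher), with the role of each gene in brackets and an asterisk where called. Colour stops at 1.5 either way, so XAF1 (7.24), TNFSF12 (5.68), TNF (2.81) and LTA (1.84) are off the scale, and the first column holds no called change of 0.5 or more.

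Short lists of genes known to respond to a pathway were set beside these values as counts, to be read against 58.2% of all genes called in parental and 50.7% in resistant cells on the drug, 60.1% between the lines off the drug and 69.5% on it, and 50.1% for the difference of the responses. Medians over all genes lay between -0.015 and 0.014 in these comparisons. Of 8 interferon-induced genes, 8 were higher in resistant cells off the drug (median log2 difference 3.03) and 8 on it (2.09), 8 were lower with the drug in resistant cells (median log2 change -2.04) and 6 in parental cells (-0.46). Of 8 NF-kB targets, 7 were higher and 1 lower in resistant cells off the drug (median 0.49), and 6 were higher on it (0.75). With the drug 5 were higher and 1 lower in resistant cells (0.27), and 1 and 1 in parental cells (-0.025). TNFAIP3 is in this list as well, and CCL20 passed the filter only through resistant libraries. Without CCL20 6 of 7 were higher and 1 lower off the drug (median 0.312) and 5 were higher on it (0.317). With the drug in resistant cells 4 of these 7 were higher and 1 lower (median 0.163). Of 8 p53 targets, 5 were higher and 3 lower in parental cells on the drug, 5 and 2 in resistant cells, 2 and 4 between the lines off the drug and 4 and 4 on it, with medians from -0.202 to 0.246. Of 7 genes of the integrated stress response, whose factor DDIT3 is known to induce TNFRSF10B, 2 were higher and 2 lower with the drug in parental cells, and 6 were higher in resistant cells (median 0.40). Between the lines 3 were higher and 3 lower off the drug, and 6 were higher on it. For the difference of the responses 7 interferon-induced genes were lower and 6 stress genes higher, and 3 were higher and 1 lower both among the NF-kB and among the p53 targets. The part of these pathways in the levels of the 9 genes was not tested.

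For each gene the 3 transcripts with the most similar profile over the 8 libraries were named by Pearson's r of log2 CPM. They were TXNIP (0.996), ARF3 and SNAI2 for TNFSF10, FRMD6 (0.997), ARRDC4 and TMSB4X for BIRC3, KAT6B (0.997), BROX and ARPC1A for FAS, ARSA (0.993), OGDHL and AP5B1 for TNFRSF10B, and ASCC3 (0.982), MCAT and ZNF485 for TNFRSF10A. For CASP8 they were HEBP2 (0.988), DDX42 and NSD1, for CFLAR KCTD10 (0.995), CREB3L2 and DNAJC18, for BIRC2 SINHCAF (0.999), RFC1 and TIMM17A, and for XIAP YAF2 (0.979), DENR and LNPK. The libraries come from 4 groups and share their scaling, and the profiles were picked from 11714 candidates or more, so high values are to be found for most genes and no test was made. None of the 9 genes was among the 3 most similar of another. Candidates needed a mean CPM of at least 1, so TNFSF10 could not be named for another gene. With so many candidates this is a description.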

How the data were processed

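For each of the 8 libraries the authors deposited raw counts of reads per gene, with duplicate-marked and unassigned reads on 9 separate lines that were left out here. Per the labels and the study's methods, stranded libraries from polyadenylated RNA were trimmed with SeqPurge and aligned to GRCh38 with HISAT2 2.2.1, and Picard and HTSeq are named. The strand setting and annotation release of the counting are not given in the sources used here, and 4.05% to 4.23% of assignable reads were ambiguous between genes. GENCODE 44 gave symbols, positions and transcripts for 60419 of 60675 identifiers.

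The counts went into edgeR 4.0.16 (R 4.3.3) after filterByExpr had removed genes with low counts. Libraries were scaled with TMM and the 4 group means fitted to all 8 libraries (robust quasi-likelihood test, 4 residual degrees of freedom). Genes with a p under 0.05, adjusted by Benjamini-Hochberg over all 16661 genes, were called. The standard error was the size of the log2 change divided by the square root of F. An exact permutation test of 2 against 2 libraries cannot go below 0.333 and was not used. Ratios of genes with few reads carry exact binomial intervals of 95% that cover counting error only. Plots were made in Python 3.11.15 with matplotlib 3.10.9.

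The 9 genes, the further lists and the tests were chosen with earlier results of these data known. All 9 genes are named in every comparison. Of the 35 further genes those called with an absolute log2 change of at least 0.5 are named, mostly with values in other comparisons, and those not tested. Whether parental or resistant libraries alone would carry a gene through the filter was checked. Alternatives were the Wald test of DESeq2 1.42.0, scaling by its size factors or by library totals, a filter at a mean CPM of 1 or none, the replicate number as a block, only the groups compared, an adjusted p under 0.01, a test against 0.5 log2 units and each library left out in turn, its partner then assumed to vary like the other groups.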

Additional observations from a re-analysis of the deposited data

Results flagged for a closer look

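The response to indisulam was called different between the lines, by the test of the difference itself (edgeR, adjusted p), for 4 of the 9 genes, all with a lower log2 response in resistant cells: TNFRSF10A by -0.15 (0.013), BIRC2 by -0.22 (0.00013), BIRC3 by -0.43 (3.5e-07) and XIAP by -0.22 (0.00028). In this comparison 50.1% of all genes were called. With libraries scaled by their totals TNFRSF10A (-0.038) and XIAP (-0.103) were no longer called, and TNFRSF10B (0.177) and CFLAR (0.125) were called with a higher response. Among the further genes named, the log2 response was higher in resistant cells for TNF by 2.81 (adjusted p 0.0011), LTA by 1.84 (0.0027), TNFRSF25 by 0.90 (0.0029), TNFRSF10D by 0.53 (5.8e-09), TNFAIP3 by 0.73 (7.9e-10), CASP10 by 0.44 (0.0017), DIABLO by 0.63 (0.016) and CYLD by 0.17 (0.006). It was lower for XAF1 by -2.83 (adjusted p 0.00013) and BID by -0.33 (5.6e-05). TNF and LTA rested on 2 to 33 reads per library and XAF1 on 5 to 15 in parental libraries. TNF and XAF1 passed the filter on low counts only through resistant libraries, so their values are a description and not a test. The dose was the same in both lines and the time on the drug was not. Untreated parental cells received no drug, whereas untreated resistant cells had been taken off it. Line, time on the drug and earlier exposure thus cannot be told apart in these differences.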

How the results depend on the processing

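Of 751 values of the 9 genes under the alternatives, 671 kept their direction and side of the threshold, 47 lost a call, 14 gained one and 19 turned in sign, none of them a call. A test against 0.5 log2 units left 0, 1, 2, 2 and 0 of the 9 genes called (parental drug, resistant drug, lines off drug, lines on drug, difference of responses). It left 0, 4, 5, 5 and 4 of the further genes, TNF, TNFSF12 and XAF1 included, and 1042, 879, 2582, 3509 and 908 of all 16661 genes. A mean CPM of at least 1 left 11 of the further genes called for the difference of responses in place of 17. Over all genes this filter left 7056 of 12066 called there, in place of 8351 of 16661. Scaling by library totals turned FAS in parental cells (-0.017), TNFRSF10B (0.047) and BIRC2 (0.049) in resistant cells on the drug and the difference of responses of CASP8 (0.033), and the CPM filter turned the same values to -0.007, 0.026, 0.028 and 0.002. The difference of responses of CFLAR was -0.001 with DESeq2 size factors and with the DESeq2 test. Leaving out single libraries gave -0.052 to 0.008 for TNFRSF10A in parental cells, -0.001 to 0.059 for it between the lines off the drug, -0.043 to 0.028 for TNFRSF10B, -0.031 to 0.028 for BIRC2 and -0.25 to 0.007 for FAS in resistant cells on the drug, and -0.013 to 0.024 for CFLAR in the difference of responses. Counts of the 9 genes called then ranged over 4 to 5, 4 to 5, 7 to 8, 8 to 8 and 3 to 5 in the order above. The replicate block called 9537 genes in parental cells on the drug against 9690, and changed no call of the 9 genes. Libraries sharing a number did not deviate together (correlations -0.058 to 0.027 over 6 pairs of groups), so the number is no pairing. TNFSF10 could not be tested at a mean CPM of at least 1. Its parental reads limit every ratio that uses them.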
